A study of Rattus norvegicus with 12 samples.

Results

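Liver genes were selected here on one pattern: the Control libraries and the libraries of NDEA-injected rats given CFT-1 tea lay on one side, and the libraries of rats given NDEA alone or NDEA with FYT tea lay on the other. A gene was a member when, after scaling of the 12 libraries, all 6 values of the first pair of groups were above, or all 6 were below, all 6 values of the second pair. The rule was met by 189 of the 11160 Ensembl rat gene IDs whose deposited FPKM averaged at least 1. Of these 189 members, 121 were higher and 68 were lower in Control and NDEA+CFT-1, and they are called higher and lower members. FPKM counts the fragments of a gene relative to its length and to the sequenced total of the library.

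RNA was sequenced from livers of male Wistar rats at week 20, with 3 libraries for each of 4 groups, drawn from 12 rats per group at the start. The lesion counts of the paper cover fewer than 12 rats in NDEA and NDEA+FYT and all 12 in Control and NDEA+CFT-1. Whether nodules were part of the sequenced tissue is not stated there. Control rats were injected with saline and drank water, and NDEA rats drank water and received 25 mg/kg of N-nitrosodiethylamine by injection, 2 times weekly between weeks 2 and 9. NDEA+CFT-1 and NDEA+FYT rats received the same NDEA injections and drank a green tea infusion, either CFT-1, a variety rich in EGCG, or the common variety Fuyun6 (FYT). No group received a tea without NDEA, so the action of either tea in livers without NDEA could not be compared, and the ages of the rats were not given in the sources used here. In bulk liver samples fewer cells of a type and less RNA per cell cannot be told apart.

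NDEA is activated in hepatocytes by cytochrome P450 enzymes to a product that alkylates DNA, and repeated injections induce liver tumors in rats. EGCG, epigallocatechin-3-gallate, is the main catechin of green tea and has been studied as an agent that prevents such tumors. The pattern asks at which genes rats given NDEA and CFT-1 lay with rats that received no NDEA while rats given the common tea lay with the model. The deposited IDs were not paired with gene symbols in the sources used here. For this reason 0 members were named, no pathway or marker list could be counted, and the liver label could not be checked against marker genes.

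The scale factors of the libraries themselves nearly followed the pattern. A scale factor is the median ratio of the FPKM of a library to the average library, by which its values were divided. It was 0.984, 1.01 and 0.771 in Control, 1.0, 0.819 and 0.973 in NDEA+CFT-1, 1.4, 0.979 and 1.02 in NDEA, and 1.12, 1.08 and 1.06 in NDEA+FYT, in the order of replicates 1 to 3. In the second pair only NDEA replicate 2, at 0.979, lay below the highest factor of the first pair, 1.01 in Control replicate 2. NDEA replicate 1 stood apart, with a mean correlation of log2 values across genes of 0.919 with the other 11 libraries, and it had the lowest depth. Relative depth, from the FPKM value of 1 read, ran from 1.0 in that library to 1.66 in NDEA+CFT-1 replicate 1.

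The 189 members were 1.69% of the 11160 genes, and the same rule applied to the other ways of pairing the groups found fewer. Control and NDEA against both tea groups gave 19 genes, or 0.17%, 8 of them with Control and NDEA on the higher side and 11 on the lower. Control and NDEA+FYT against NDEA and NDEA+CFT-1 gave 7 genes, or 0.0627%, 1 with Control and NDEA+FYT on the higher side and 6 on the lower. These counts describe these 12 libraries and were not tested. The higher members were 1.08% and the lower members 0.609% of the genes.

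The first pairing gave the most genes under every setting run, single libraries left out included, except 1 that was added after seeing the data. Without scaling the counts were 222, 28 and 4 genes, but the split of the first count turned from 121 higher and 68 lower to 7 higher and 215 lower. With quantile normalization they were 103, 32 and 6 genes, with 54 higher and 49 lower. When the 3 libraries with the most extreme scale factors were left out (Control replicate 3, NDEA+CFT-1 replicate 2 and NDEA replicate 1), the counts were 307, 243 and 196. Without scaling and without these 3 libraries they were 290, 429 and 191, and the pairing of Control with NDEA gave the most genes, which is the exception. Leaving out libraries raises each count by construction, so these values are read only against each other. Which of scaling, libraries and treatment set the counts was not tested.

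**Figure D1:**
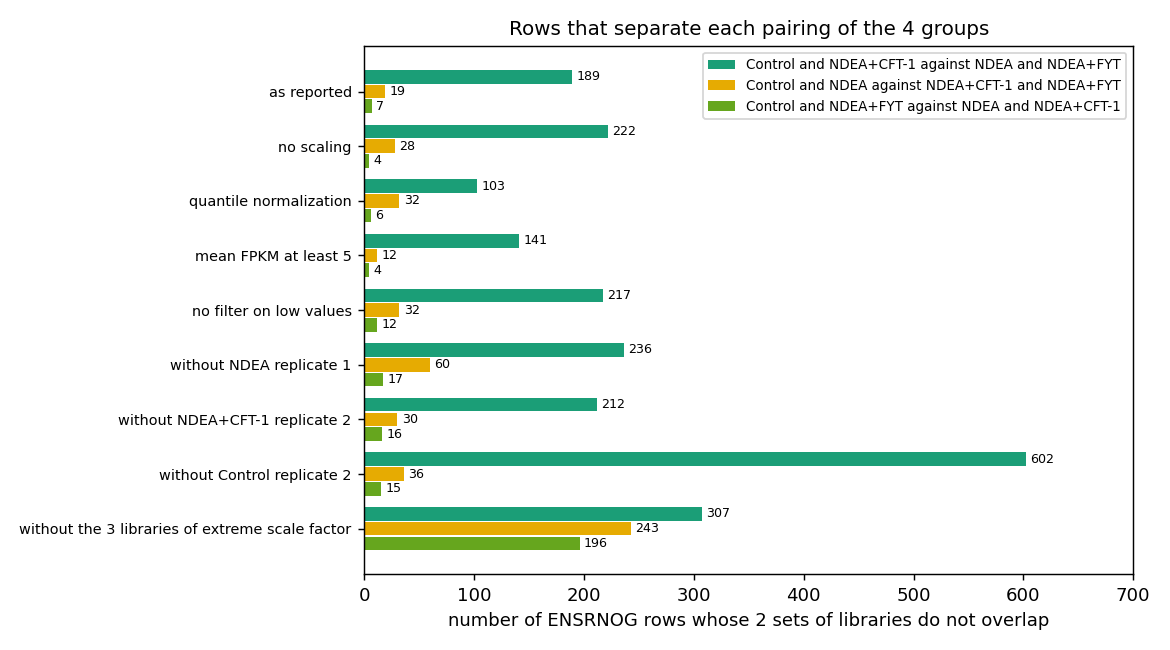
Bars give the number of genes (horizontal axis) whose 2 sets of libraries do not overlap, for each of the 3 pairings of the groups (colours) and each setting (rows). Control with NDEA+CFT-1 leads with 189 genes against 19 and 7, and the 3 counts lie closer together, at 307, 243 and 196, without the libraries of extreme scale factor.

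The number of genes selected also differed with the library left out. Without Control replicate 2 the first pairing gave 602 genes, and this library was the one next to the gap for 39 of the 121 higher and 35 of the 68 lower members. Without NDEA replicate 2 it gave 295 genes, and without NDEA+CFT-1 replicate 3 it gave 288. Without the 2 libraries NDEA replicate 1 and NDEA+CFT-1 replicate 2 the 3 pairings gave 262, 114 and 50 genes.

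The gap that separated the pairs was under 1.05-fold for most members. The gap is the ratio, on FPKM + 1, of the lowest library of the higher pair to the highest library of the lower pair. Its median was 1.029-fold for the higher and 1.034-fold for the lower members, and 130 of 189 members had a gap under 1.05-fold. On this scale 2 members had a gap of at least 1.2-fold and 0 had one of at least 1.5-fold. On scaled FPKM without the added 1, which shrinks the gaps of low genes, the medians were 1.031 and 1.043 and 123 of 189 gaps were under 1.05-fold. There 7 members, 6 of them lower, had a gap of at least 1.2-fold, and ENSRNOG00000059660 alone passed 1.5-fold, at 1.98. At the threshold, the smallest gaps of members were 1.0005, 1.0003 and 1.0002 for the higher and 1.0019, 1.0013 and 1.0011 for the lower members. The nearest genes outside overlapped by as little, at ratios of 0.9999 and 0.9998, and 358 genes outside the set overlapped by under 1.05-fold.

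The differences between the pairs were moderate, and they are given as a description because they chose the members. On the log2(FPKM + 1) scale the higher members were above NDEA and NDEA+FYT by 0.18 to 0.81, with a median of 0.38, and 114 of 121 differed by under 1.5-fold. The lower members differed by -1.55 to -0.18, or -1.14 to -0.18 without ENSRNOG00000059660, with a median of -0.47, and 49 of 68 differed by under 1.5-fold. The median absolute difference over all 11160 genes was 0.18. Over all genes the median signed difference was 0.04 after scaling and -0.17 without scaling. The medians of the members without scaling were 0.13 for the higher and -0.68 for the lower members. With quantile normalization they were 0.21 and -0.43, and without NDEA replicate 1 and NDEA+CFT-1 replicate 2 they were 0.27 and -0.38.

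In comparisons of single groups NDEA+CFT-1 and NDEA were farthest apart with all 12 libraries, but not for the higher members without the libraries that stand apart. The median of the higher members was 0.39 for Control minus NDEA, 0.38 for NDEA+CFT-1 minus NDEA+FYT, 0.45 for NDEA+CFT-1 minus NDEA and 0.31 for Control minus NDEA+FYT. For the lower members these medians were -0.46, -0.44, -0.57 and -0.35. Without NDEA replicate 1 and NDEA+CFT-1 replicate 2 the medians in the same order were 0.30, 0.25, 0.24 and 0.31 for the higher members and -0.39, -0.39, -0.40 and -0.35 for the lower. These comparisons share groups with each other and with the rule, so none of them is evidence for another.

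**Figure D2:**
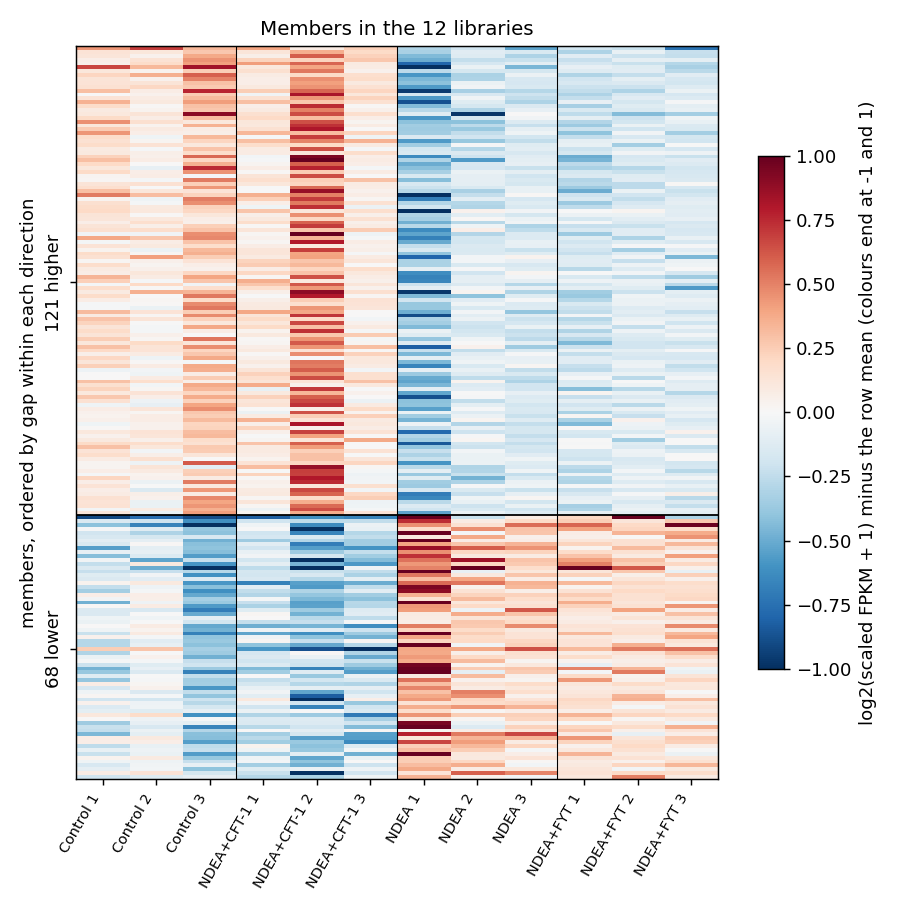
Each row is 1 of the 189 members and each column 1 of the 12 libraries; colour gives log2(scaled FPKM + 1) minus the mean of the row. NDEA+CFT-1 replicate 2, Control replicate 3 and NDEA replicate 1 carry the strongest colours, and Control replicate 2 stays near the row mean.

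The 2 genes with the widest gap in each direction show the pattern in single libraries. ENSRNOG00000008798 had the widest gap among the higher members, 1.21-fold. Its scaled FPKM was 111, 133 and 103 in Control, 108, 86.7 and 96.4 in NDEA+CFT-1, 66.3, 71.4 and 56.4 in NDEA and 71.0, 70.0 and 48.6 in NDEA+FYT. The means ± SD (n = 3 each) were 116 ± 15.2, 97.0 ± 10.6, 64.7 ± 7.6 and 63.2 ± 12.6. The lowest library of the first pair was NDEA+CFT-1 replicate 2 and the highest of the second pair was NDEA replicate 2. Without scaling these pairs overlapped, with a ratio of 0.765, and with quantile normalization it was 0.858.

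ENSRNOG00000006705 had the next widest gap in this direction, 1.14-fold. It was at 13.4, 13.2 and 14.8 in Control, 13.2, 15.9 and 13.9 in NDEA+CFT-1, 9.47, 11.1 and 10.8 in NDEA and 9.56, 11.5 and 10.2 in NDEA+FYT. Both groups of the first pair were level with each other, at 13.8 ± 0.885 and 14.3 ± 1.38 (SD, n = 3), as were both of the second pair, at 10.5 ± 0.891 and 10.4 ± 0.971. The pairs overlapped without scaling, at a ratio of 0.871, and did not overlap with quantile normalization, at 1.09.

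Among the lower members ENSRNOG00000059660 had the widest gap, 1.24-fold on FPKM + 1, at very low levels. It was at 0.0842, 0.199 and 0.099 in Control and at 0.147, 0.326 and 0.285 in NDEA+CFT-1. In NDEA it was at 29.2, 0.746 and 1.16, and in NDEA+FYT at 1.35, 3.06 and 0.645. NDEA replicate 1 alone was far above every other library, and the NDEA mean was 10.4 with it and 0.952 without it. The gene passed the filter through this library alone, since its deposited FPKM was 41.0 there and averaged 0.768 in the other 11. The log2 difference between the pairs was -1.55 with this library and -0.89 without it. The pairs stayed apart without scaling, at a ratio of 1.32, and overlapped with quantile normalization, at 0.937.

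ENSRNOG00000049270 was the other lower member with a wide gap, 1.17-fold, and it was the one of the 4 whose pairs stayed apart without scaling, at 1.17, and with quantile normalization, at 1.1. It was at 2.43, 2.28 and 1.47 in Control, 2.3, 2.17 and 2.18 in NDEA+CFT-1, 5.32, 3.01 and 3.32 in NDEA and 3.48, 3.12 and 3.57 in NDEA+FYT. The means ± SD (n = 3 each) were 2.06 ± 0.515, 2.22 ± 0.0692, 3.89 ± 1.25 and 3.39 ± 0.239. NDEA replicate 1 was again the highest library, and the difference of -0.55 between the pairs was -0.45 without it.

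**Figure D3:**
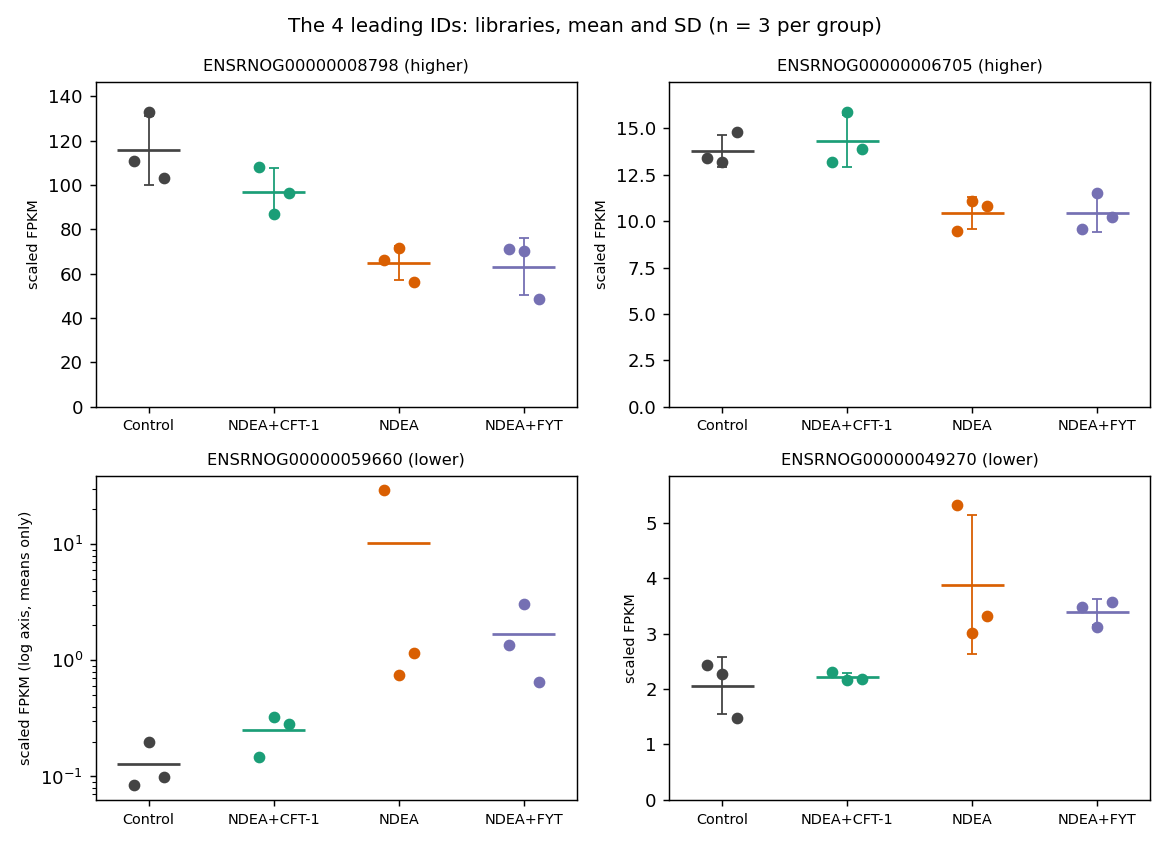
Points are scaled FPKM of the 3 libraries per group for the 2 genes with the widest gap in each direction, lines are group means and bars are SDs; ENSRNOG00000059660 is on a log axis with no bars. In each panel the 6 libraries of Control and NDEA+CFT-1 lie apart from the other 6, and NDEA replicate 1 is alone at 29.2 for ENSRNOG00000059660.

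Higher and lower members differed in how abundant they were. The median of the mean FPKM was 42.4 for the higher and 3.51 for the lower members, against 7.53 over all 11160 genes. A mean FPKM of 50 or more was found for 56 of 121 higher members (46.3%) and for 1 of 68 lower members (1.47%), against 12.8% of all genes. A mean FPKM under 5 was found for 3.31% of the higher and 64.7% of the lower members, against 38.4% of all genes. The most abundant higher member had a mean FPKM of 1868 and the most abundant lower member 163. No higher member and 2 lower members were listed at 0 in a library. Of the lower members 18 of 68 averaged under an FPKM of 1 in Control and NDEA+CFT-1, and 8 averaged under 1 without their highest library, so they passed the filter through values on their high side. None of the 121 higher members did.

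Among all genes, members or not, the direction also went with the level. Of the 1431 genes at a mean FPKM of 50 or more, 90.4% were higher in Control and NDEA+CFT-1, with a median difference of 0.29 on the log2 scale. Of 5448 genes between 5 and 50, 65.2% were higher, with a median of 0.09, and without scaling the direction turned, to 21.5% and -0.15. Of 4281 genes between 1 and 5, 33.2% were higher, with a median of -0.09 (without scaling, 8.97% and -0.26). Without scaling the abundant genes had a median of 0.04 and 59.7% of them were higher. Higher members made up 3.91% of the genes at 50 or more, and lower members 1.03% of those between 1 and 5.

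The libraries at the ends of the scale factors were also at the ends of the members. NDEA+CFT-1 replicate 2 was the highest library for 80 of 121 higher members, Control replicate 3 was the highest for 29, and NDEA replicate 1 was the lowest for 80. For the 68 lower members NDEA replicate 1 was the highest for 41, and Control replicate 3 and NDEA+CFT-1 replicate 2 were the lowest for 26 and 24. How often these libraries were outermost over all genes was not counted, so these counts are not read as particular to the members. Relative to the mean of each gene, the higher members had a median of 0.45 in NDEA+CFT-1 replicate 2 and -0.37 in NDEA replicate 1, and all genes at a mean FPKM of 50 or more had medians of 0.41 and -0.41 there. Of the 121 higher members 56 were at that level, and 61 were between 5 and 50. All genes between 5 and 50 had medians of 0.10 and -0.13 in the same libraries, nearer to 0 than the higher members. In all other libraries the medians of the higher members lay between -0.19 and 0.27.

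Across the 12 libraries, the median correlation of a member with the log2 scale factor was -0.80 for the higher and 0.75 for the lower members, against -0.13 over all genes. On unscaled values it was -0.01 for the higher and 0.90 for the lower members. Unscaled values still hold the factor, and no value over all genes was taken there, so 0.90 is not read as particular to the lower members. The scaled values and the scale factor share the same FPKM, and the factor is nearly ordered by the pairs that chose the members, so these are descriptions with n = 12. Of the 121 higher members 7 still met the rule without scaling and 34 with quantile normalization, 3 of them under both. Of the 68 lower members 65 still met it without scaling and 36 with quantile normalization, 36 of them under both.

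**Figure D4:**
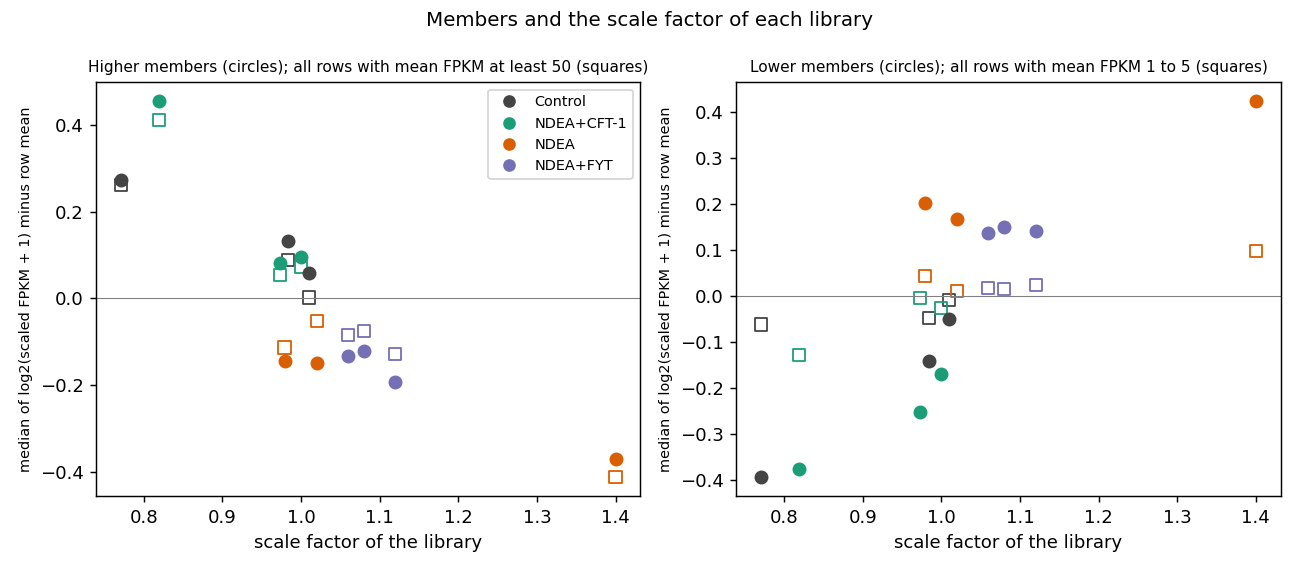
The horizontal axis is the scale factor of a library and the vertical axis the median over genes of log2(scaled FPKM + 1) minus the gene mean; circles are members and squares all genes of the level named above each panel. For the higher members, 0.45 at NDEA+CFT-1 replicate 2 and -0.37 at NDEA replicate 1 lie near the squares at 0.41 and -0.41, while the lower members at NDEA replicate 1 lie at 0.42 against 0.10. Of the 121 higher members 61 had a mean FPKM between 5 and 50, a level not drawn, where all genes had medians of 0.10 and -0.13.

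What the rule did not use was the difference within each pair: NDEA+CFT-1 minus Control, and NDEA+FYT minus NDEA. The rule does limit the spread within a pair, so small values are partly fixed by the choice. The median absolute difference between NDEA+CFT-1 and Control was 0.10 for the members on the log2 scale, against 0.15 for all genes, and between NDEA+FYT and NDEA it was 0.09 against 0.13. By limma with Benjamini-Hochberg adjustment over 11854 genes, 0 genes (0%) were called in either comparison, with smallest adjusted p-values of 0.461 and 0.999. At an unadjusted p under 0.05 limma gave 570 genes (4.81%) for NDEA+CFT-1 with Control and 187 genes (1.58%) for NDEA+FYT with NDEA. In a fit of Control and NDEA+CFT-1 alone the first count was 495, and 811 with the replicate number as a block, with 0 genes called in both. Single libraries moved these unadjusted counts. The count of 570 was 305 without Control replicate 1 and 899 without Control replicate 3. The count of 187 was 620 without NDEA replicate 2, 399 without NDEA replicate 3 and 111 without NDEA+FYT replicate 1. Without NDEA replicate 2 the comparison of NDEA+CFT-1 with Control gave 585, so the order of these counts turned. Without the 3 libraries of extreme scale factor the counts were 1947 and 452. In the fit of all 12 libraries, 4 of the 189 members (2.12%) were among the 570 genes and 2 (1.06%) among the 187. The 4 were lower members that lay below Control in NDEA+CFT-1.

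These tests do not show that Control and NDEA+CFT-1 were alike at these genes. The 95% limma interval of NDEA+CFT-1 minus Control reached a median of 0.38 to each side for the higher and 0.39 for the lower members, against median differences between the pairs of 0.38 and -0.47. For ENSRNOG00000008798 the difference was -0.25 (SE 0.19, interval -0.66 to 0.16, limma adjusted p = 0.998). For ENSRNOG00000006705 it was 0.05 (SE 0.13, interval -0.23 to 0.33), and for ENSRNOG00000049270 it was 0.09 (SE 0.19, interval -0.33 to 0.50). For ENSRNOG00000059660 the interval ran from -1.69 to 1.99.

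Between NDEA+FYT and NDEA the same 4 genes also gave intervals that included 0. The difference was -0.05 (interval -0.46 to 0.36) for ENSRNOG00000008798 and -0.01 (interval -0.29 to 0.27) for ENSRNOG00000006705. It was -0.95 (interval -2.79 to 0.89) for ENSRNOG00000059660 and -0.13 (interval -0.54 to 0.29) for ENSRNOG00000049270. The first 2 of these genes are higher members and the last 2 are lower members.

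The signs of the small differences within pairs were uneven with all 12 libraries. NDEA+CFT-1 was above Control for 94 of 121 higher members and below it for 46 of 68 lower members. NDEA+FYT was above NDEA for 97 of 121 higher members and below it for 57 of 68 lower members. This unevenness rested largely on 1 library in each comparison. Without it the majority turned for the higher members, and it narrowed but kept its direction for the lower members. Without NDEA+CFT-1 replicate 2 the first counts were 33 of 121 and 37 of 68. Without NDEA replicate 1 the second were 56 of 121 and 40 of 68. With all libraries, the shares over all genes were 52.7% above Control and 51.2% above NDEA, and at a mean FPKM of 50 or more they were 61.8% and 64.1%. Between 1 and 5 they were 46.4% and 40.0%. The most common order of group means among the higher members was NDEA+CFT-1, Control, NDEA+FYT, NDEA from high to low, for 74 of 121, and among the lower members it was the reverse, for 40 of 68. Without both of these libraries only 19 of 121 and 23 of 68 had these orders, and the most common among the higher members was Control, NDEA+CFT-1, NDEA, NDEA+FYT, for 51. Among the lower members the order found for 23 of 68 was still the most common.

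For most members the libraries of the groups within a pair overlapped, as they did for most of all genes. The rule limits the spread within a pair, so the shares of the members are not independent of the choice. All 3 libraries of NDEA+CFT-1 lay above or below all 3 of Control for 5 of 121 higher members (4.13%) and 5 of 68 lower members (7.35%), against 9.12% of all genes. For NDEA+FYT and NDEA these counts were 11 of 121 (9.09%) and 8 of 68 (11.8%), against 6.56% of all genes.

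**Figure D5:**
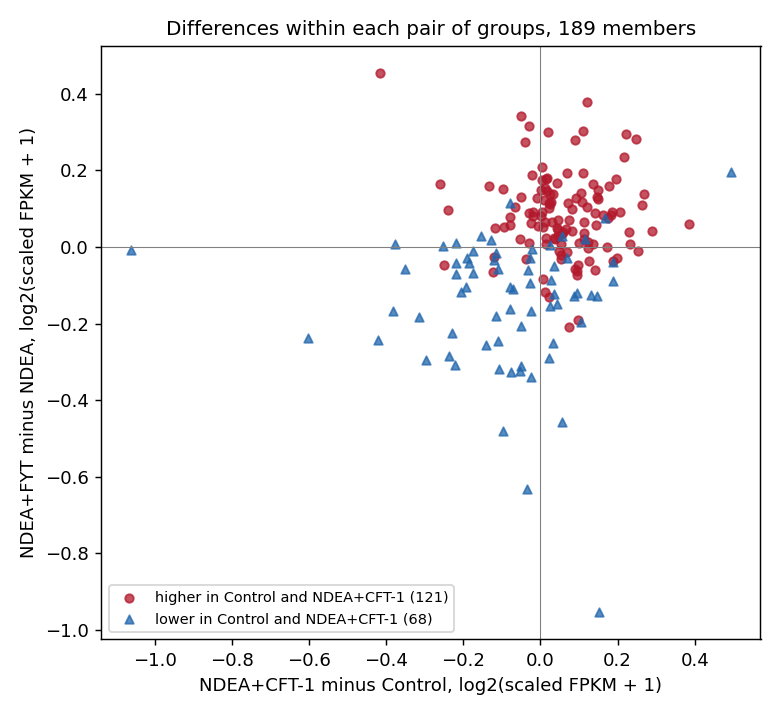
Each point is 1 of the 189 members, with NDEA+CFT-1 minus Control on the horizontal and NDEA+FYT minus NDEA on the vertical axis, both as log2(scaled FPKM + 1). Higher members lie mostly right of and above 0 (94 and 97 of 121) and lower members mostly left of and below 0 (46 and 57 of 68), with all libraries. Without NDEA+CFT-1 replicate 2 and NDEA replicate 1 these counts are 33 and 56 for the higher and 37 and 40 for the lower members.

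The size of the NDEA effect without tea was compared with the difference between the teas by the difference of gaps, (Control minus NDEA) minus (NDEA+CFT-1 minus NDEA+FYT). It is built from the same differences within pairs, whose spread the rule limits, so small values of the members are here too partly fixed by the choice. Limma called 0 genes (0%), with a smallest adjusted p of 0.999, and 257 genes (2.17%) had an unadjusted p under 0.05. That count was 159 without Control replicate 1, 394 without Control replicate 3, 561 without NDEA replicate 2 and 171 without NDEA+FYT replicate 1. It was 1153 without the 3 libraries of extreme scale factor, with 1 gene called. The smallest adjusted p by limma was 0.0938 without NDEA replicate 2 and 0.0186 without NDEA+FYT replicate 3, where 1 gene was called. Among the members 2 of 189 (1.06%) had such a p in the fit of all libraries. The median absolute difference of gaps was 0.12 for the members and 0.18 for all genes, and the 95% interval reached a median of 0.54 to each side for the higher and 0.56 for the lower members. This is the same contrast, up to scale, as Control and NDEA+FYT against NDEA and NDEA+CFT-1.

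For the contrast that chose the members, limma also called 0 genes over all 11854 (0%), with a smallest adjusted p of 0.286. At an unadjusted p under 0.05 it gave 1745 genes (14.7%), 1007 higher and 738 lower in Control and NDEA+CFT-1. Without scaling the split was 74 higher and 1726 lower. With quantile normalization it was 521 higher and 596 lower, and without Control replicate 3 the count was 1031, with 566 higher and 465 lower. Without the 3 libraries of extreme scale factor it was 1057. For Control and NDEA against both tea groups, 0 genes were called, the smallest adjusted p was 0.601 and 506 genes (4.27%) had an unadjusted p under 0.05. This count was 814 without Control replicate 3 and 1395 without the 3 libraries of extreme scale factor, so in that setting it was above the 1057 of the contrast that chose the members. Nothing is read from these counts for the members, since the first contrast is the one that selected them.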

How the data were processed

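Livers of 12 rats were measured, 3 per group, and groups and replicate numbers came from the sample labels. According to the submitters' notes and the methods, the authors trimmed paired reads with Trimmomatic, mapped them to Rnor_6.0 with HISAT2 and discarded PCR duplicates. Uniquely mapped reads per gene were then counted with HTSeq 0.6.1, and the authors deposited FPKM values. The annotation release was not given in the sources used here, and the depth in reads is unknown.

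The deposited FPKM were divided by median-of-ratios factors from the 15742 IDs above 0 in all 12 libraries. Scaled values were analysed as log2(FPKM + 1), which understates changes of low genes. IDs with a mean deposited FPKM of at least 1 were kept: 11854 in all, of which 11160 are Ensembl IDs. Limma 3.58.1 in R 4.3.3 was fitted to all 12 libraries and 4 groups (eBayes with trend, Benjamini-Hochberg adjustment, called at an adjusted p under 0.05). P-values set a difference against the spread between the 3 rats of a group, pooled over all 4 groups and moderated over genes by eBayes. In the fit of all 12 libraries a comparison within a pair thus also uses the spread of the other pair. The fit was run on simulated data, in which its median estimate recovered the size of known changes. These changes were larger than the median differences between the pairs, so this does not show how often such differences would be called. Same-numbered libraries of Control and NDEA+CFT-1 deviated together across genes (r = 0.212, 0.243 and 0.251), so a blocked fit of these groups was added after seeing the data. The labels do not say what a number shares. Plots were drawn with matplotlib 3.10.9.

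The members and the lists were chosen with earlier results of these data known. Genes were to be named by symbol from fixed lists of pathways and cell type markers, but 0 IDs had a symbol, so the 2 IDs with the widest gap in each direction were printed. Alternatives were no scaling, quantile normalization, other filters and pseudocounts, a gap of at least 1.2-fold, the replicate block and each library left out. Leaving out the 3 libraries of extreme scale factor, gaps without a pseudocount, the signs within pairs without single libraries and the counts at an unadjusted p were added after seeing the data.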

Additional observations from a re-analysis of the deposited data

How the results depend on the processing

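The counts of genes that separate Control with NDEA+CFT-1, Control with NDEA, and Control with NDEA+FYT from the other groups are given in that order, against 189, 19 and 7 as reported. They were 222, 28 and 4 without scaling, 103, 32 and 6 with quantile normalization, 141, 12 and 4 at a mean FPKM of at least 5, 217, 32 and 12 without a filter, and 2, 0 and 0 for a gap of at least 1.2-fold on FPKM + 1. Leaving out 1 library gave 207 to 602, 21 to 67, and 10 to 30. They were 262, 114 and 50 without both NDEA replicate 1 and NDEA+CFT-1 replicate 2. Without the 3 libraries of extreme scale factor they were 307, 243 and 196, and without scaling as well 290, 429 and 191. Of the members, 72 still met the rule without scaling and 70 with quantile normalization, and the median differences without scaling were 0.128 for the higher and -0.682 for the lower members. The causes were not tested, beyond fewer libraries raising a count by construction.

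Limma called 0 genes in each contrast as reported. Without a filter it called 1 for NDEA+CFT-1 with Control, 1 for the difference of gaps and 1 for each of the 3 pairings. Leaving out 1 library gave 0 to 2 for NDEA+CFT-1 with Control (2 without Control replicate 2) and 0 to 1 for NDEA+FYT with NDEA, the difference of gaps and the 3 pairings. The 1 call came without NDEA+FYT replicate 3, and for Control with NDEA+CFT-1 also without Control replicate 2. Without the 3 libraries of extreme scale factor it called 1 for the difference of gaps. With the replicate number as a replicate block it called 0 in each contrast, and 522, 171, 224, 1584 and 482 genes had an unadjusted p under 0.05 for NDEA+CFT-1 with Control, NDEA+FYT with NDEA, the difference of gaps, and the pairings of Control with NDEA+CFT-1 and with NDEA, against 570, 187, 257, 1745 and 506. Over all pairs of groups 7 of 18 correlations of same-numbered libraries were over 0.1, with a range of -0.444 to 0.251. Control with NDEA+CFT-1 was the only pair of groups with all 3 over 0.1, and a block fitted to these groups alone also called 0 genes. Depth in reads is unknown, and 3 libraries per group limit each mean.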

Other observations

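IDs of another form than the Ensembl IDs, which the sources used here do not explain, were left out of the members by the rule. Of 694 such IDs with a mean FPKM of at least 1, 3 separated Control and NDEA+CFT-1 from NDEA and NDEA+FYT, 2 separated Control and NDEA from both tea groups, and 0 separated Control and NDEA+FYT from the other pair.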
